A study of Homo sapiens with 21 samples.

Results

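Translation initiation factors are the proteins that bring the ribosome, the initiator tRNA and an mRNA together and place the ribosome on the start codon. Their genes carry symbols that begin with EIF1 to EIF6. The members described here are the genes with such a symbol in the platform annotation of the array, without pseudogenes and without readthrough genes. The letters matched 57 symbols, and leaving out 1 pseudogene (EIF3IP1) gave 56. Of these, 3 are older names (EIF2C1 to EIF2C3) of Argonaute genes, which act in RNA silencing and not in initiation, and they are given apart. That left 53 initiation factor genes, of which 52 were tested among 16614 genes in all. EIF3C was not tested, because fewer than 3 probesets named it alone. EIF2D is annotated under the older symbol LGTN and so was not matched.

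The study measured RNA from MCF10A, a non-tumorigenic human breast epithelial line that depends on epidermal growth factor (EGF) for growth. All cells were low passage, were kept 24 h without EGF and 24 h more in 1% horse serum, and were then given 20 ng/ml of EGF. The 7 groups were untreated cells (0 min) and cells at 20, 40, 60, 120, 240 and 480 min of EGF, with 3 biological replicates each, so 21 arrays in all. No untreated arrays accompany the later times, so an effect of EGF and an effect of time or handling cannot be told apart. All groups come from this 1 line, and the arrays give RNA levels and no protein levels or phosphorylation.

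In textbook terms, eIF2 bound to GTP carries the initiator tRNA to the small ribosomal subunit, eIF2B reloads eIF2 with GTP, and stress kinases stop that exchange by phosphorylating the alpha subunit of eIF2. The eIF4 proteins bind the mRNA cap and unwind the leader, with eIF4E as the cap-binding protein and eIF4G as the scaffold, and eIF3 bridges them to the ribosome. Growth factor signalling is known to act on this machinery through mTORC1, which releases eIF4E from its binding proteins, and through MNK kinases, which phosphorylate eIF4E. MYC, whose binding site is the E-box, is a known activator of several of these genes, among them EIF4E.

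Promoters are shown first for EIF4E, EIF5A2 and EIF2S1, the 3 genes with the largest rises after EGF, and for EIF4B, the 1 gene called lower, because these genes move in the same hours and in opposite directions. Each line is the 250 bases before the RefSeq start in assembly GRCh38.p14, read 5′ to 3′ on the gene's strand. Capitals mark the E-box letters CACGTG and the ETS core letters CGGAAG, searched on both strands. The windows are EIF4E at chr4:98929134-98929383 on the minus strand, EIF5A2 at chr3:170908638-170908887 on the minus strand, EIF2S1 at chr14:67360078-67360327 on the plus strand and EIF4B at chr12:53006206-53006455 on the plus strand.
EIF4E: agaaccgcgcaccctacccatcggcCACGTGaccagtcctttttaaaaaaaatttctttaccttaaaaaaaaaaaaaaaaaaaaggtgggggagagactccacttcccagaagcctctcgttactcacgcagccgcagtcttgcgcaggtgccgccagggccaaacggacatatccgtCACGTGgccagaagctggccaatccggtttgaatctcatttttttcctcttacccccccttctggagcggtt
EIF5A2: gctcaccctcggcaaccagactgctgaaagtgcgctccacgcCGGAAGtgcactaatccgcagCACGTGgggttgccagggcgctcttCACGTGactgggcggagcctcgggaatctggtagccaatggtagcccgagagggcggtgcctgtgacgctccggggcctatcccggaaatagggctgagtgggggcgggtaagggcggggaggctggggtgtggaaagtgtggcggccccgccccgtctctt
EIF2S1: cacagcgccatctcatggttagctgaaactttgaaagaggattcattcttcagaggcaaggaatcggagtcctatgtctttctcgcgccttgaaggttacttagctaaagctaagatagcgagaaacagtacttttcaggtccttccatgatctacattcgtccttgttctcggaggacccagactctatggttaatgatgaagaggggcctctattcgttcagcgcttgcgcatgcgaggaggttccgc
EIF4B: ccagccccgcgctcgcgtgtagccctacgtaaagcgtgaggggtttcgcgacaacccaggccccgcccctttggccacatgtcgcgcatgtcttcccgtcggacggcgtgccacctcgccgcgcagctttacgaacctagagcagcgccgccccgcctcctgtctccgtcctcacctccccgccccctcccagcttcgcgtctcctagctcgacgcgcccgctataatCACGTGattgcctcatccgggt
The EIF4E window holds 2 E-boxes, at 225 and 72 bases before the start. The EIF5A2 window holds 2 E-boxes, at 187 and 162 bases, and an ETS core at 208 bases. EIF4B, which fell, has an E-box at 22 bases, and EIF2S1, which rose, has neither motif in these letters.

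RefSeq promoter windows, from 250 bases before to 50 after the start, were found for 44 of the 52 members. Only the first listed window of a gene was used, so any other start of the gene was not searched. EIF2AK1, EIF2S2, EIF3A, EIF3E, EIF3G, EIF3H, EIF3L and EIF4EBP1 had no window and were not searched. An E-box stood in 12 of the 44 (27.3%), against 7.43% of all 27305 windows in the table. An ETS core stood in 18 of 44 (40.9%), against 19.9% of all windows. The letters TGACGT, the core of a cAMP response element, were in 11.4% of member windows against 8.32% of all, and CCAAT was in 38.6% against 35.7%. These motifs were searched on both strands and do not overlap each other in the windows printed. Among members, the E-box share was about equal for the genes called higher in the test over all times (5 of 19, 26.3%) and for those not called (6 of 24, 25%). A start of the terminal oligopyrimidine kind, here a C at the start followed by 4 bases that are each C or T on the gene's strand, stood in 8 of 44 members (18.2%) against 4.04% of all windows. These 8 were EIF2A, EIF2S3, EIF3D, EIF3F, EIF3K, EIF3M, EIF4A2 and EIF4B, and such starts are known from mRNAs whose translation depends on mTORC1. Of these 8 genes, 1 was called higher (EIF3M), 1 was called lower (EIF4B) and 6 were not called. The 27305 windows were not limited to the 16614 genes tested, so no member share was compared with that of expressed genes. A match of letters is a description and shows no binding.

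Of the 52 initiation factor genes, 25 were called at 1 or more times after EGF, 24 of them higher, and 27 were called at no time. The share of all genes called at 1 or more times was not counted. The test over all times called 42.3% of members and 27.5% of all genes. At 480 min, 22 genes were higher than at 0 min and 1 was lower, with EIF4E, EIF5A2 and EIF2S1 at 2.38, 2.33 and 2.03 times their 0 min level. These are log2 changes of 1.25, 1.22 and 1.02 in the median level of a gene's probesets. The median of the single probesets' changes was 0.91, 1.31 and 0.83. No member was called at 20 min, 1 at 40 min, 4 at 60 min, 16 at 120 min, and 17 higher with 1 lower at 240 min. The median change of the 52 genes was 0.12, 0.11, 0.18, 0.28, 0.33 and 0.37 on the log2 scale at the 6 successive times, while the median over all 16614 genes lay between 0.02 and 0.05.

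The counts come from limma with Benjamini-Hochberg adjustment over all genes, called at an adjusted p under 0.05, on a gene's median of log2(intensity + 16), a scale that understates changes of dim genes. They are read against the share of all genes called in the same comparison. At 20 min 0.981% of all genes were called, beside none of 52 members by limma, 12 of which had an unadjusted p under 0.05, as had 3324 of the 16614 genes. At 40 min the background was 2.23% beside 1.92% of members, and at 60 min 5.8% beside 7.69%, so up to 60 min the called shares stood near the background. An unadjusted p under 0.05 at 60 min was found for 22 of 52 members and 3391 of 16614 genes, and 42 of the 52 changes were positive. By direction, 0.897% of all genes were higher and 0.0843% lower at 20 min, 1.82% and 0.415% at 40 min, and 4.82% and 0.975% at 60 min. At 120 min 14.4% of all genes and 30.8% of members were called, at 240 min 19.7% and 34.6%, and at 480 min 22.6% and 44.2%. By direction, 11.2% of all genes were higher and 3.21% lower at 120 min, 13.5% and 6.21% at 240 min, and 15.5% and 7.11% at 480 min, while 1 of 52 members was lower at each of the last 2 times. The limma F-test over the 6 times called 22 members (42.3%) against 27.5% of all genes. Of these 22, 21 had their largest change upwards and 1 downwards, beside 18.4% and 9.08% of all genes. The members' median level was 7.97 to 8.66 over the arrays, above the 6.62 to 6.77 of all genes tested. The shares were not compared with those of genes of like brightness. With a filter at the 75th percentile of probeset brightness, 45.1% of members and 29.1% of all genes were called at 480 min. In the F-test it was 41.2% and 35.6%. All 6 comparisons share the same 3 untreated arrays, so their values are not independent of each other. In bulk RNA such as this, a change in the share of cells and a change per cell cannot be told apart.

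**Figure D1:**
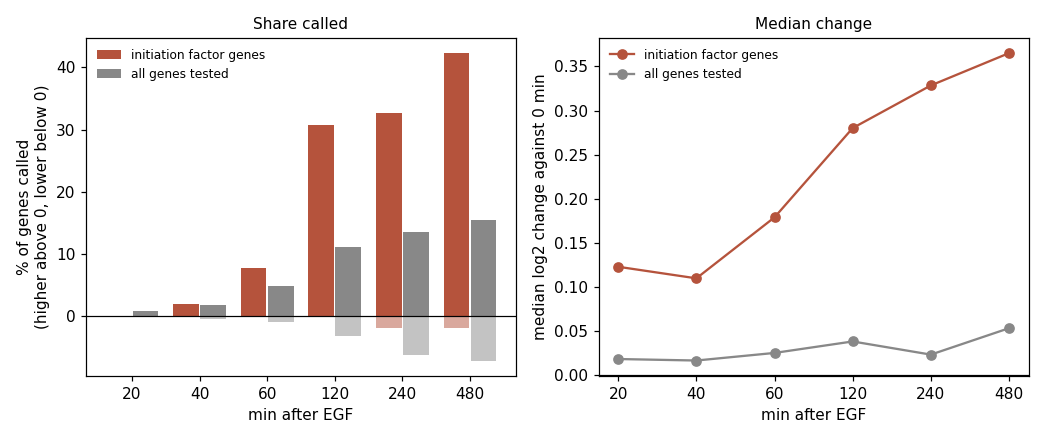
Left, percent of genes called higher (above 0) and lower (below 0) at each time against 0 min, for the 52 initiation factor genes and for all genes tested, with limma at an adjusted p under 0.05. Right, median log2 change of the same sets. At 480 min 44.2% of members were called in either direction against 22.6% of all genes, and the members' median was 0.37 against 0.05.

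Of the 22 genes called over all times, 13 had their largest change at 480 min, 4 at 240 min, 4 at 120 min and 1 at 60 min. A call at each of 120, 240 and 480 min was made for 12 genes, and 18 were called at both 240 and 480 min. No gene was called at 240 min and not at 480 min, and 5 were called at 480 min and not at 240 min. Shares of all genes with such peak times or repeated calls were not counted, and these comparisons share the same untreated arrays. The count at 120 min rested on single arrays: it was 6 without replicate 3 of that time and 11 without replicate 2. All genes called fell too, from 2395 to 1561 and 1681. Without replicate 3 of 240 min the count there was 11, and all genes called fell from 3281 to 2185. At 60 min 1 gene was called without replicate 3 of that time, and 2 without its replicate 1 or without replicate 2 of 0 min. All genes called there fell from 963 to 454, 614 and 727. At 480 min, leaving out any 1 array of either time gave 17 to 27 calls, and 2658 to 3789 over all genes.

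Replicate arrays correlated at 0.944 to 0.988 across genes, and the median replicate SD was 0.166 for members and 0.169 for all genes. All 9 basal breast epithelial markers measured, such as KRT5 and TP63, read between 9.18 and 12.5 on the log2 scale. The 7 luminal markers measured read 5.64 (ELF5) to 9.93 (KRT8), with ESR1 at 5.98, GATA3 at 7.11 and KRT18 at 8.96. The 5 fibroblast markers read 5.76 (PDGFRA) to 7.31 (COL1A1), the 3 leukocyte markers 5.62 (PTPRC) to 6.30 (CD14) and the 3 endothelial ones 5.79 (CDH5) to 6.61 (PECAM1), on a scale where probesets below 5.18 were left out. Arrays also differed in how far named probesets stood above unnamed ones. This array index, a difference of log2 medians, was 1.24 ± 0.02 (SD, n = 3) at 0 min and had means of 1.27 to 1.32 at the EGF times. With that index as a covariate, the members called by limma numbered 2 at 60 min, 9 at 120 min, 16 at 240 min and 18 at 480 min, and 23 in the F-test. The excess over all genes was then smaller: 9 of 52 members stood against 2371 of 16614 genes at 120 min, 34.6% against 26.8% at 480 min and 44.2% against 37.1% in the F-test.

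**Figure D2:**
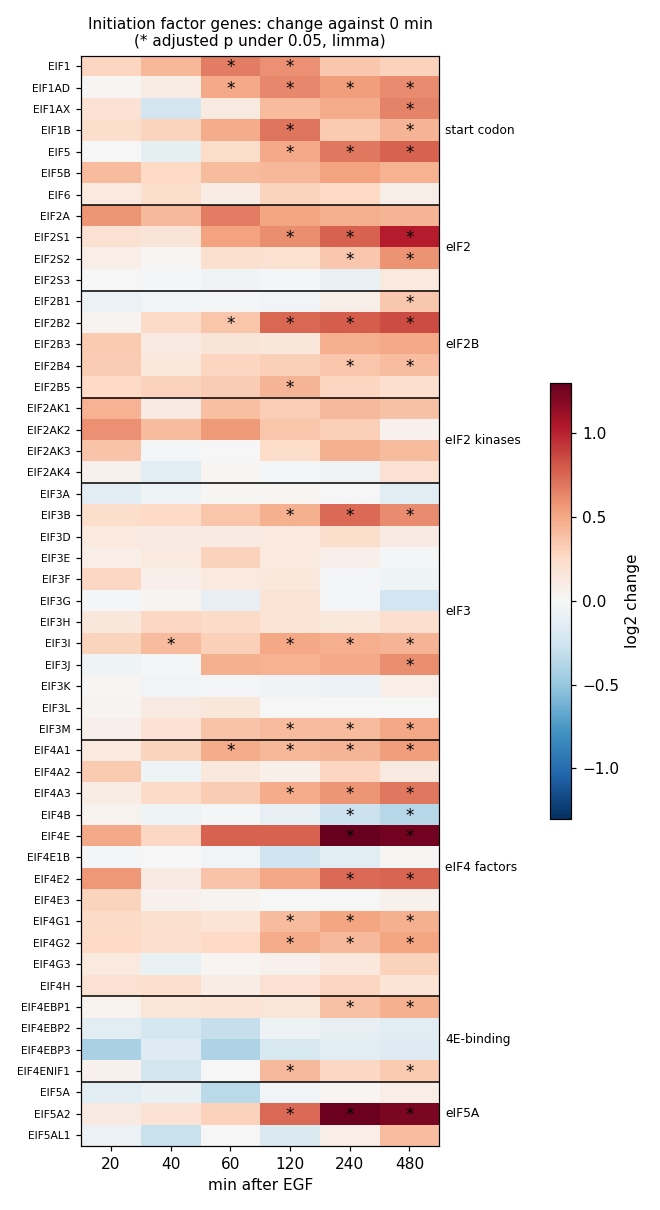
Log2 change against 0 min (colour, red higher and blue lower) of 51 of the 52 initiation factor genes, all but EIF1AY, at each EGF time, grouped by role. Stars mark an adjusted p under 0.05 by limma. Most stars stand at 120 min and later and in red cells, and EIF4B is the row with stars in blue.

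The factors that bind the cap, hold the mRNA and unwind it gave the largest single rise, that of EIF4E at 240 min. EIF5A2, with a rise of 1.28 ± 0.14 (SE) at that time, lay within the error of the EIF4E value. Of the 12 cap, scaffold and helicase genes, 7 (58.3%) were called over all times, beside 27.5% of all genes. Of the 7, 6 had their largest change upwards and 1 downwards. At 480 min the same counts of 6 higher and 1 lower held, where 22.6% of all genes were called. EIF4E, the cap-binding protein and the target of the 4E-binding repressors, read 7.19, 7.56 and 7.7 at 0 min. It read 7.89, 8.23 and 7.82 at 20 min, 8, 7.4 and 7.87 at 40 min, 8.32, 7.76 and 8.67 at 60 min and 7.63, 8.55 and 8.57 at 120 min. At 240 min it read 8.66, 8.76 and 8.93, and at 480 min 8.95, 8.14 and 9.12. The 240 and 480 min arrays all lay above the untreated ones, while 1 array each at 40 and 120 min fell among them. The rise was 1.3 ± 0.26 (SE) at 240 min (2.46-fold, limma adjusted p = 0.0012) and 1.25 ± 0.26 at 480 min (adjusted p = 0.0014), and 17 of its 18 probesets were higher at 480 min. With the array index as a covariate the change at 480 min was 0.81, still called. EIF4E also had a replicate SD of 0.38, above the members' median of 0.166.

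EIF4E2, a relative of EIF4E that binds caps more weakly, read 6.51, 6.76 and 6.57 at 0 min, and 7.23, 7.61 and 6.71 at 20 min. It read 6.8, 6.61 and 6.8 at 40 min, 6.97, 6.82 and 7.16 at 60 min and 7.13, 7.06 and 7.15 at 120 min. The 240 min arrays read 7.37, 7.26 and 7.41 and those of 480 min 7.54, 7.03 and 7.55, all above 0 min, as were those of 60 and 120 min. The change was 0.73 ± 0.17 at 240 min (adjusted p = 0.0034) and 0.76 ± 0.17 at 480 min (adjusted p = 0.0022). It rests on the choice of probesets: a filter at the 75th percentile of brightness gave -0.04 and -0.16, and the mean of the 9 probesets in place of the median gave 0.27 and 0.26 (adjusted p = 0.11 and 0.13). EIF4E1B and EIF4E3, further relatives, were called at no time, with 0.02 and 0.06 at 480 min.

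EIF4A3, a helicase of the exon junction complex, read 7.56, 7.42 and 7.72 at 0 min and 7.86, 7.57 and 7.55 at 20 min. It then read 7.77, 7.97 and 7.72 at 40 min, 7.81, 7.92 and 7.97 at 60 min and 7.98, 7.87 and 8.29 at 120 min. At 240 min it read 8.07, 8.11 and 8.23 and at 480 min 8.18, 8.28 and 8.3, so from 60 min on no array fell among the untreated ones. Its changes were 0.48 ± 0.12 at 120 min, 0.57 ± 0.12 at 240 min and 0.69 ± 0.12 at 480 min (limma adjusted p = 0.0083, 0.0016 and 0.00023). The 120 min call was lost without replicate 3 of that time (0.36). EIF4A1, the main helicase of cap-dependent initiation, was higher by 0.55 ± 0.12 at 480 min (adjusted p = 0.0021), a call that held with any 1 array left out, and was also called at 60, 120 and 240 min. Those 3 earlier calls, of 0.48, 0.44 and 0.44, were each lost when 1 of several arrays was left out, with values of 0.36 to 0.49. Its close relative EIF4A2 was called at no time (0.12 at 480 min, 95% interval -0.21 to 0.44).

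Of the 3 scaffold genes, 2 were called. EIF4G1, the main scaffold, rose by 0.51 ± 0.10 at 240 min (limma adjusted p = 0.00093) and 0.46 ± 0.10 at 480 min (adjusted p = 0.002), and 51 of its 53 probesets were higher at 480 min. EIF4G2, a scaffold that lacks the eIF4E site, was called with 0.51 ± 0.12 at 480 min (adjusted p = 0.0045), yet the mean of its 42 probesets gave 0.17 (adjusted p = 0.13) and 11 of the 42 were lower. EIF4G3 at 0.30 and EIF4H, which stimulates the helicase, at 0.18 did not pass at 480 min.

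EIF4B, the other stimulator of the helicase, fell. It read 10.49, 10.38 and 10.39 at 0 min, 10.59, 10.43 and 10.38 at 20 min and 10.44, 10.31 and 10.36 at 40 min. It read 10.31, 10.46 and 10.46 at 60 min, 10.23, 10.29 and 10.43 at 120 min, 10.18, 10.09 and 10.16 at 240 min and 10.07, 9.97 and 10.1 at 480 min. All arrays of 240 and 480 min lay below all untreated ones, and those of the earlier times overlapped them. The change was -0.28 ± 0.09 at 240 min (limma adjusted p = 0.041) and -0.37 ± 0.09 at 480 min (0.773-fold, adjusted p = 0.006). Of its 66 probesets, 64 were lower at 480 min. The 480 min call held with each array left out in turn. The 240 min call was lost in all 6 such refits, where the change was between -0.24 and -0.3.

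**Figure D3:**
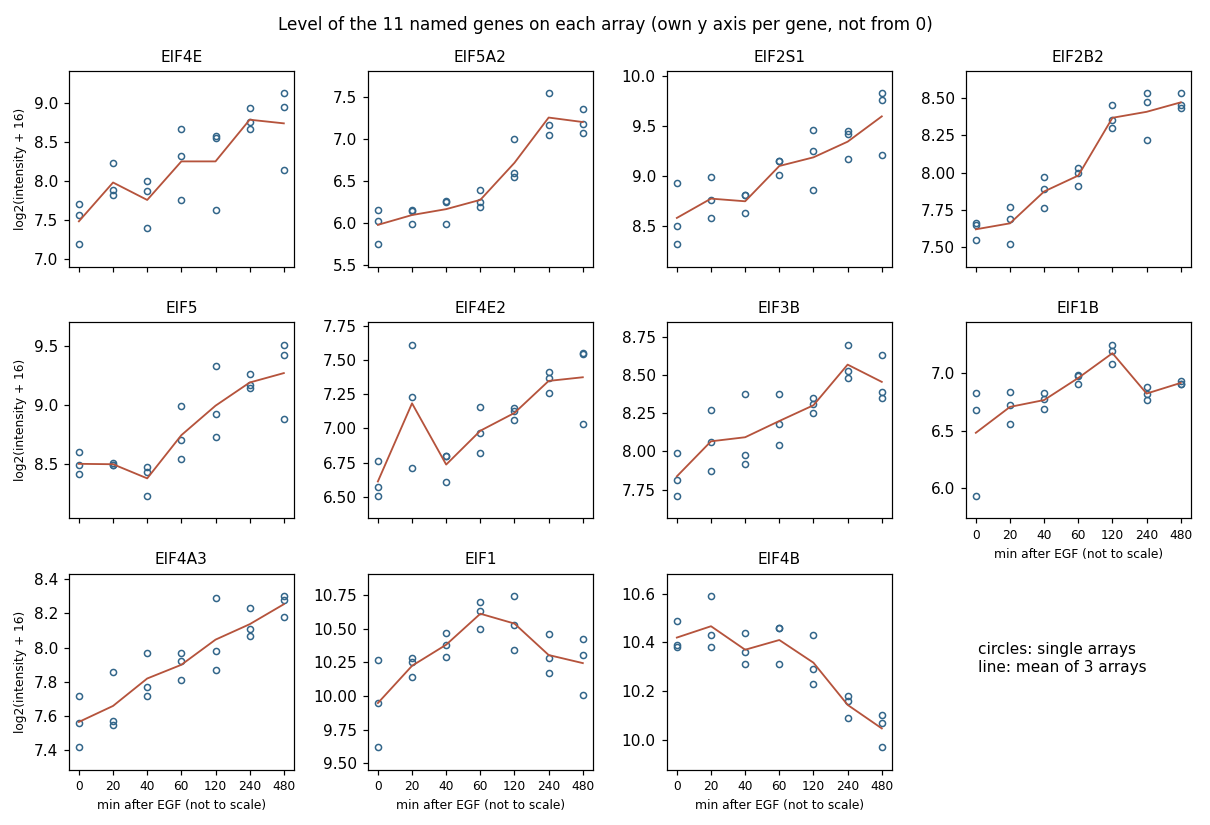
Level of 11 genes called over all times: the 10 with the largest rises and EIF4B, the 1 called lower. Values are log2(intensity + 16) on each array (circles) with the mean of the 3 arrays (line). Each gene has its own axis, which does not start at 0, and times are evenly spaced. At 480 min the EIF5A2 and EIF2B2 arrays stand above all untreated ones and the EIF4B arrays below them.

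Among the 4E-binding proteins, which keep eIF4E from the scaffold, 2 of 4 were called over all times, beside 27.5% of all genes. EIF4EBP1, the main repressor that mTORC1 inactivates, read 6.75, 6.49 and 6.82 at 0 min and 7.08, 7.22 and 7.15 at 480 min, a rise of 0.46 ± 0.12 (limma adjusted p = 0.0076). Without replicate 2 of 0 min it was 0.36 and no longer called, and with the filter at the 75th percentile it was 0.21. EIF4ENIF1, which carries eIF4E into the nucleus, was called at 120 min (0.42 ± 0.12, adjusted p = 0.016) and at 480 min (0.34). Without replicate 3 of 0 min or of 120 min the former was 0.36 and 0.33 and was lost, and the latter was lost in 4 of 6 refits without 1 array. EIF4EBP2 and EIF4EBP3 were below 0 min at 480 min by values that did not pass, -0.14 and -0.16.

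The eIF2 group, which delivers the initiator tRNA, split by subunit. EIF2S1, the alpha subunit that the stress kinases phosphorylate, read 8.93, 8.32 and 8.5 at 0 min and 8.58, 8.99 and 8.76 at 20 min. It read 8.81, 8.63 and 8.81 at 40 min, 9.01, 9.15 and 9.15 at 60 min and 8.86, 9.25 and 9.46 at 120 min. At 240 min it read 9.17, 9.45 and 9.42, and at 480 min 9.76, 9.21 and 9.83. The arrays of 60, 240 and 480 min lay above all untreated ones, and 1 array at 120 min did not. Its rise was 0.77 ± 0.17 at 240 min (limma adjusted p = 0.0031) and 1.02 ± 0.17 at 480 min (2.03-fold, adjusted p = 0.00018), and all 14 probesets were higher at both times. A call at 120 min (0.61) was lost in 4 of the 6 refits without 1 array, with values of 0.47 to 0.58 there, and with the array index as a covariate (0.35).

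EIF2S2, the beta subunit, was higher by 0.58 ± 0.12 at 480 min (limma adjusted p = 0.0011), with arrays of 8.52, 8.65 and 8.71 against 7.92, 8.04 and 8.18 at 0 min. All of its 18 probesets were higher, and the mean over them gave 0.95. EIF2S3, the gamma subunit that binds GTP, read 11.05, 10.79 and 10.88 at 0 min and 11.08, 10.91 and 11.12 at 480 min, which overlap. Its change was 0.13 (95% interval -0.06 to 0.33) and it was called at no time. EIF2A, a separate carrier of initiator tRNA, reached 0.66 ± 0.26 at 60 min without passing (adjusted p = 0.14).

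All 5 subunits of eIF2B, the exchange factor of eIF2, were positive at 480 min, as were 9670 of all 16614 genes. Of the 5, 3 were called, beside 22.6% of all genes. EIF2B2, its beta subunit, had the smallest adjusted p of them in the F-test (5.8e-07). It read 7.65, 7.66 and 7.55 at 0 min, 7.69, 7.77 and 7.52 at 20 min, 7.76, 7.89 and 7.97 at 40 min and 8, 8.03 and 7.91 at 60 min. It read 8.3, 8.35 and 8.45 at 120 min, 8.22, 8.47 and 8.53 at 240 min and 8.43, 8.53 and 8.45 at 480 min. From 40 min on every array lay above the untreated ones. The changes were 0.75, 0.78 and 0.85 (each ± 0.10) at 120, 240 and 480 min, with limma adjusted p = 2e-05, 7.2e-06 and 2.4e-06, and all 11 probesets were higher at each of these times. A call at 60 min (0.36, adjusted p = 0.04) was lost in all 6 refits that left out 1 array, where the change was 0.32 to 0.39. EIF2B1 and EIF2B4, the alpha and delta subunits, were called at 480 min with 0.35 and 0.40, and EIF2B5, the catalytic epsilon subunit, at 120 min with 0.44, but none of these 3 passed the F-test. The EIF2B5 call was lost without replicate 1 of 0 min (0.35) or replicate 3 of 120 min (0.37), the EIF2B4 call in 3 of 6 such refits (0.35 to 0.40) and the EIF2B1 call in 4 of 6. EIF2B3, the gamma subunit, was at 0.49 at 480 min with an adjusted p of 0.072.

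None of the 4 eIF2 kinases was called by limma at any time or in the F-test, and none had an unadjusted F-test p under 0.05. EIF2AK1, the kinase of haem shortage, was at 0.38 at 480 min (95% interval 0.0045 to 0.76). EIF2AK2, the kinase that senses double-stranded RNA, was at 0.59 ± 0.27 at 20 min and 0.05 at 480 min. EIF2AK3, the endoplasmic reticulum stress kinase, was at 0.41 (0.01 to 0.80) and EIF2AK4, the sensor of amino acid shortage, at 0.20 (-0.10 to 0.50) at 480 min. These intervals do not exclude changes of the size called for other members.

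In start codon recognition and subunit joining, 5 of 8 genes (62.5%) were called over all times, beside 27.5% of all genes. All 5 were upwards, at different times. EIF1, which keeps the scanning ribosome from wrong start codons, had its largest change at 60 min. It read 10.27, 9.62 and 9.95 at 0 min, 10.28, 10.14 and 10.25 at 20 min, 10.47, 10.38 and 10.29 at 40 min and 10.63, 10.5 and 10.7 at 60 min. It read 10.34, 10.53 and 10.74 at 120 min, 10.17, 10.28 and 10.46 at 240 min and 10.3, 10.01 and 10.42 at 480 min. The arrays of 40, 60 and 120 min lay above the untreated ones and those of 240 and 480 min overlapped them. The change was 0.66 ± 0.14 at 60 min (limma adjusted p = 0.0064) and 0.59 ± 0.14 at 120 min (adjusted p = 0.0071), then 0.36 and 0.30 without a call. The change from 60 to 480 min, -0.37, was not called either. Both calls were lost without replicate 2 of 0 min (0.5 and 0.43), the later one also without replicate 3 of 120 min (0.49). With the mean of the 12 probesets the changes were 0.24 and 0.32, still called.

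EIF1B, a near relative of EIF1, read 5.93, 6.68 and 6.83 at 0 min, 6.84, 6.72 and 6.56 at 20 min, 6.69, 6.78 and 6.83 at 40 min and 6.98, 6.91 and 6.99 at 60 min. It peaked with 7.25, 7.08 and 7.2 at 120 min and then read 6.88, 6.82 and 6.77 at 240 min and 6.91, 6.93 and 6.91 at 480 min. Replicate 1 of 0 min lay far below the other arrays of the gene. The change at 120 min was 0.70 ± 0.15 (limma adjusted p = 0.0027), and without that array it was 0.42 and still called. The change called at 480 min (0.44) was 0.17 without it and no longer called. All 6 probesets were higher at 120 min, though with no filter on dim probesets the change was 0.5 and no longer called (adjusted p = 0.051).

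EIF5, which makes eIF2 hydrolyse GTP at the start codon, rose later. It read 8.41, 8.49 and 8.6 at 0 min, 8.49, 8.49 and 8.51 at 20 min, 8.43, 8.23 and 8.47 at 40 min and 8.54, 8.7 and 8.99 at 60 min. It read 8.73, 8.92 and 9.33 at 120 min, 9.14, 9.17 and 9.26 at 240 min and 9.42, 8.88 and 9.51 at 480 min, and from 120 min on every array lay above the untreated ones. Its change was 0.69 ± 0.16 at 240 min and 0.77 ± 0.16 at 480 min (limma adjusted p = 0.003 and 0.00098), with 24 of 26 probesets higher at 480 min. A call at 120 min (0.49) was lost in 4 of 6 refits without 1 array, to as low as 0.32 without replicate 3 of that time.

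EIF1AD, an EIF1A-like gene of less known role, was higher at 60, 120, 240 and 480 min, by 0.49, 0.62, 0.54 and 0.61 (each ± 0.11), and the last 3 calls held with any array left out. Its 60 min call was lost without replicate 3 of that time (0.43). EIF1AX, which guides scanning with EIF1, was called at 480 min on 4 probesets (0.65 ± 0.21, limma adjusted p = 0.029), but not with the array index as a covariate (0.35) or in 4 of 6 refits without 1 array. EIF5B, which joins the large subunit, was at 0.46 at 480 min (adjusted p = 0.1) and EIF6, which keeps the subunits apart, at 0.08.

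Of the 12 eIF3 subunits tested, 4 (33.3%) were called over all times, all upwards, near the 27.5% of all genes, and 8 were not. EIF3B, a core subunit that holds EIF3I and EIF3J, had the largest change of the group. It read 7.71, 7.81 and 7.99 at 0 min, 8.06, 8.27 and 7.87 at 20 min, 8.38, 7.98 and 7.92 at 40 min and 8.04, 8.18 and 8.38 at 60 min. It read 8.25, 8.31 and 8.35 at 120 min, 8.53, 8.7 and 8.48 at 240 min and 8.35, 8.39 and 8.63 at 480 min, above all untreated arrays from 60 min on. The change was 0.73 ± 0.13 at 240 min (limma adjusted p = 0.00039) and 0.62 ± 0.13 at 480 min (adjusted p = 0.0017). With the mean of its 37 probesets it was 0.43 and 0.35, still called.

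EIF3I, another core subunit, was called at 120, 240 and 480 min with 0.50, 0.48 and 0.44 (each ± 0.10), and all 14 of its probesets were higher at 480 min. It was also the 1 member called at 40 min (0.41, adjusted p = 0.035), where 5 of 6 refits without 1 array lost the call (0.35 to 0.43). EIF3M was higher by 0.50 ± 0.12 and EIF3J, a loosely bound subunit, by 0.60 ± 0.19 at 480 min (limma adjusted p = 0.0031 and 0.027). The EIF3J value was 0.31 without replicate 2 of 0 min, and its call was lost there and in 2 further refits without 1 array (0.52 and 0.6). The 8 uncalled subunits were EIF3A, EIF3D, EIF3E, EIF3F, EIF3G, EIF3H, EIF3K and EIF3L, with changes of -0.25 (EIF3G) to 0.22 (EIF3H) at 480 min. EIF3A, the largest scaffold subunit, read 9.54, 9.55 and 9.54 at 0 min and 9.57, 9.41 and 9.24 at 480 min, a change of -0.14 (95% interval -0.42 to 0.15).

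eIF5A, despite its name, acts mainly in elongation and carries the modified lysine hypusine. EIF5A2, the isoform of restricted expression, read 6.03, 6.16 and 5.75 at 0 min, 5.99, 6.16 and 6.14 at 20 min, 6.26, 5.99 and 6.25 at 40 min and 6.39, 6.19 and 6.25 at 60 min. It read 6.55, 6.6 and 7 at 120 min, 7.54, 7.05 and 7.17 at 240 min and 7.07, 7.18 and 7.35 at 480 min. From 60 min on all arrays lay above the untreated ones. The rise was 0.74 ± 0.14 at 120 min, 1.28 ± 0.14 at 240 min (2.42-fold) and 1.22 ± 0.14 at 480 min, with limma adjusted p = 0.00093, 1.1e-06 and 1.8e-06, the smallest F-test p of any member (2.7e-07) and all 7 probesets higher. The 9 other settings and each left-out array kept these calls, with 480 min values from 0.81 with a pseudocount of 64 to 2.09 with the filter at the 75th percentile.

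EIF5A, the common isoform, was called at no time against 0 min on its 13 single-gene probesets (0.09 ± 0.13 at 480 min). Taken singly, 9 of these 13 were higher at 60 min and 10 at 480 min, with median probeset changes of 0.12 and 0.40. A separate set of 13 probesets, which the annotation assigns to EIF5A together with its near-identical copy EIF5AL1, rose by 0.39 at 120 min, 0.41 at 240 min and 0.67 ± 0.12 at 480 min (limma adjusted p = 0.04, 0.026 and 0.0006). EIF5AL1's own 5 probesets were at 0.40 (adjusted p = 0.18). The direction for EIF5A is therefore uncertain, and the shared probesets cannot be split between the genes. EIF3C could be read only with its copy EIF3CL, on 29 shared probesets, where no change was called and values ran from -0.02 to 0.07. Of the 8 probeset groups with several symbols that include a member or an Argonaute gene, 3 were called in the F-test, against 24.2% of all 814 such groups. The other two were EIF1AX with the pseudogene EIF1AP1 (0.50 ± 0.14 at 480 min, adjusted p = 0.016), and EIF4EBP3 with the readthrough gene ANKHD1-EIF4EBP3 (-0.49 ± 0.16, adjusted p = 0.037).

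**Figure D4:**
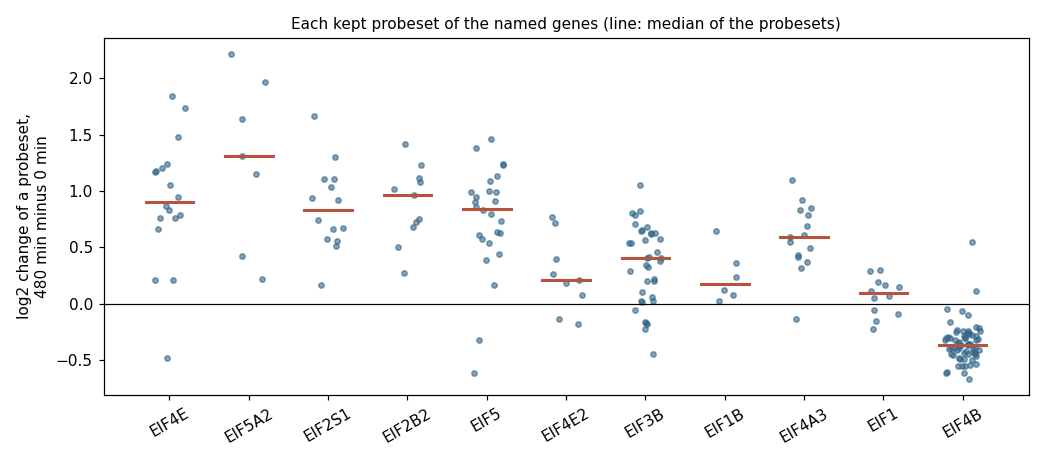
Log2 change of every kept probeset of the same 11 genes at 480 min against 0 min (points, each from 3 and 3 arrays), with the median of a gene's probesets (line). The probesets of EIF2S1 and EIF2B2 all lie above 0, 64 of 66 of EIF4B lie below 0, and all 6 of EIF1B lie above 0.

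From 60 to 480 min, 14.3% of all genes and 13.5% of members were called by limma (6 higher, 1 lower, beside 7.47% and 6.8% of all genes), a share near the background. The 6 were EIF5A2 (0.92 ± 0.14), EIF5 (0.53), EIF2B2 (0.49), EIF5A (0.44), EIF2S2 (0.37) and EIF2B1 (0.36), and EIF4B was lower by a change of -0.36. With the array index as a covariate 18 of 52 members and 3621 of 16614 genes were called in this comparison. Without replicate 3 of 480 min it was 3 members and 1887 genes.

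Partner genes from 4 lists show the surroundings of the initiation factors, read against 27.5% of all genes in the F-test. Of 28 measured initiation partners and regulators in the mTORC1 and MNK pathways, 11 were called, 7 with their largest change upwards and 4 downwards. ABCE1, which recycles ribosomes, rose by 1.18 ± 0.23 at 240 min (limma adjusted p = 0.00083), and DENR, which acts in reinitiation, by 0.83 ± 0.14 at 480 min. PDCD4, an inhibitor of the EIF4A1 helicase, was lower by a change of -0.71 ± 0.15 at 480 min (adjusted p = 0.0011), and PAIP2B, an inhibitor of the poly(A)-binding protein, by -0.47 ± 0.12 (adjusted p = 0.0076).

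Among 14 regulators and outputs of eIF2 phosphorylation, 7 were called, 5 upwards and 2 downwards. PPP1R15A, which directs a phosphatase to eIF2 alpha, was up early, by 0.91 ± 0.15 at 40 min (limma adjusted p = 0.00046), and its 480 min level was below that of 60 min by a change of -1.20. DNAJC3, an inhibitor of eIF2 kinases, rose late, by 1.29 ± 0.14 at 480 min (adjusted p = 7.5e-07), as did TRIB3, an output of the stress response (0.88 ± 0.15). SESN2, a stress-induced inhibitor of mTORC1, was lower at 120 min (-0.57 ± 0.13).

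Of 15 elongation and termination factors, 7 were called, 5 upwards and 2 downwards. EEF2K, the kinase that inhibits elongation factor eEF2, fell at each time from 60 min, to -1.14 ± 0.11 at 480 min (limma adjusted p = 9.1e-08). EEF1E1, which despite its name belongs to the multi-synthetase complex, rose by 1.1 ± 0.15 and the release factor gene GSPT1 by 0.82 ± 0.15 at 480 min, and ETF1, its partner, by 0.77 ± 0.19 at 240 min. Of 18 cytosolic tRNA synthetases, 6 were called in the F-test and 11 at 480 min, all upwards, where 22.6% of all genes were called. HARS1 rose by 0.99 ± 0.15, WARS1 by 0.90 ± 0.13, IARS1 by 0.49 ± 0.11 and CARS1 by 0.40 ± 0.08 at 480 min.

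The 3 Argonaute genes matched under EIF2C symbols act in microRNA-guided silencing. AGO2, the slicing Argonaute, rose by 0.73, 0.78 and 0.85 (each ± 0.11) at 120, 240 and 480 min (limma adjusted p = 4.4e-05, 1.5e-05 and 4.5e-06), with arrays of 8.58, 8.69 and 8.58 at 480 min above the 7.89, 7.62 and 7.8 at 0 min. AGO3 rose by 0.55, 0.50 and 0.36 at these times, and AGO1 was not called.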

How the data were processed

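RNA levels came from 21 arrays of MCF10A cells, with 3 biological replicates at each of 7 times. The authors deposited linear intensities, a single value per probeset and array, for 1384231 probesets. The tools named in the submitters' processing notes are Affymetrix Expression Console 1.1 and PLIER, with settings not given in the sources used here. Array medians of 20.44 to 20.56 show that the values had been equalised before deposit. Precision is limited by the number of arrays, and no detection calls entered.

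Probesets were named by the platform annotation, which paired 354600 with 1 symbol, 14898 with several and left 1014733 unnamed here. Older symbols were updated through RefSeq (GRCh38.p14). Intensities were taken as log2(intensity + 16). Probesets with a mean at or above the median of all (5.18, or 20.2 intensity units) were kept, and a gene's value was the median of its kept single-gene probesets, at least 3. Members had 3 to 66 of them (median 16.5), 1056 of 1139 being kept. The fit was limma 3.58.1 (lmFit, eBayes) in R 4.3.3 (data.table package, 1.17.8), with 1 mean per time over all arrays, 14 residual and 7.08 prior degrees of freedom, two-sided, adjusted by Benjamini-Hochberg over all 16614 genes. Values after ± are limma's standard errors. Probesets with several symbols had a fit of their own. The scripts were tested on simulated data.

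The members, lists and role groups were chosen with earlier results of these data known. Genes given with all array values are the 10 higher and 10 lower with the largest change at any time among those called in the F-test (1 lower gene qualified). For the rest, up to 6 called members per time with the smallest adjusted p, and up to 4 genes per partner list by F-test p, were named, and other members by count, range or as neighbours in their group. Alternatives changed the scaling (quantile normalisation or median centring), the pseudocount (1 or 64), the filter (none or the 75th percentile), the summary (mean of probesets) and the model (replicate letter as a block, array index as a covariate, or each array left out). Replicate letters A to C are not known to pair the arrays. Of 18 pairs of a 0 min array with a same-letter array of a later time, 5 had a correlation of deviations above 0.1.

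Figures were drawn with matplotlib 3.10.9 from tables made with pandas 2.3.3 in Python 3.11.15. EIF1AY was counted among the members, and its levels are not reported.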

Additional observations from a re-analysis of the deposited data

Results flagged for a closer look

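The difference between the effects at 480 and 60 min passed the limma test for 13.5% of members and 14.3% of all genes, a share near the background. The 7 members were EIF5A2 (0.92), EIF5 (0.53), EIF2B2 (0.49), EIF5A (0.44), EIF2S2 (0.37), EIF2B1 (0.36) and EIF4B (-0.36). EIF5A is among them although neither of its 2 times differed from 0 min by a call, with -0.36 at 60 min and 0.09 at 480 min. Of its 13 probesets, 9 were higher than 0 min at 60 min and 10 at 480 min, with median probeset changes of 0.12 and 0.40. The 60 min gene value, a median of levels, thus had the opposite sign to most of its probesets. Probesets that carry several symbols, which entered no gene value, rose at 480 min for EIF5A with EIF5AL1 (0.67) and for EIF1AX with the pseudogene EIF1AP1 (0.5). No cause was tested for any of these values.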

How the results depend on the processing

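Of 558 refits of the 62 called member changes without leaving out arrays, 497 kept direction and call, 59 kept the direction and lost the call, and 2 reversed: EIF4E2 with the filter at the 75th percentile (-0.04 at 240 min, -0.16 at 480 min). Of 372 refits without 1 array, 277 kept the call, 95 lost it and none reversed. Counts of members that moved by over 1.5 times were as follows, and the cause was not tested. At 20 min 1 was called with the filter at the 75th percentile and 1 with the mean of probesets. At 40 min 0 were called with a pseudocount of 1 and 0 with the replicate block. At 60 min 11 were called with the mean of probesets and 2 with the array index. All genes called there were 1377 and 851, against 963. At 120 min 9 were called with the index, and from 60 to 480 min 12 with the mean of probesets and 18 with the index. All genes called were 2371 with the index at 120 min, against 2395. From 60 to 480 min they were 3226 with the mean of probesets, against 2370. Leaving out 1 array gave 0 to 2 calls at 20 min, 0 to 1 at 40 min, 1 to 6 at 60 min, 6 to 20 at 120 min, 11 to 17 at 240 min, 17 to 27 at 480 min, 3 to 6 from 60 to 480 min and 19 to 23 in the F-test. Over all genes the same refits gave 1561 to 3044 calls at 120 min, 2185 to 2779 at 240 min and 2658 to 3789 at 480 min. The 2 calls at 20 min came without replicate 3 of that time, where all genes called rose from 163 to 1176. From 60 to 480 min 4 were called without replicate 1 or 2 of 60 min or replicate 1 of 480 min. The share of members called at 480 min was 34.6% to 45.1% over the settings with all arrays, and that of all genes 18.8% to 29.1%. The replicate block, for a letter not known to pair the arrays, gave 17 calls at 120 min, 17 at 240 min, 22 at 480 min and 21 in the F-test. Of the 21 arrays, 6 correlated best with their own letter. All genes called at 40 min numbered 683 with the index against 371, and from 60 to 480 min 3621 against 2370. In the F-test 11, 12 and 10 tRNA synthetases were called with the filter at the 75th percentile, the mean of probesets and the index. Of all genes, 35.6%, 35.2% and 37.1% were called in these settings, against 27.5%. With the mean of probesets 4 elongation and termination factors were called, and with the index 11 regulators of eIF2 phosphorylation. Signal near background limits dim genes, whose changes the scale understates.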
